A study of Mus musculus with 2 samples.

Results

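Open chromatin was described at 8 mouse genes for transcription factors of the C/EBP family (Cebpa, Cebpb, Cebpd and Cebpe) and the IRF family (Irf2, Irf4, Irf5 and Irf8). Their regions are ATAC-seq peaks of either library whose nearest protein-coding gene interval, within 100 kb, was one of these genes. The peaks of both lists were merged where they overlapped by at least 1 bp, which gave 22 regions at the 8 genes, of 23364 regions in all. The knockout list contributed 22 of its 19684 peaks and the wild-type list 12 of its 17170. The study compared 1 library from Dnmt3a knockout cells with 1 library from wild-type littermates, to ask how loss of this de novo DNA methyltransferase relates to accessibility in mast cells. Both came from bone marrow-derived mast cells of female mice aged 3 to 4 weeks, cultured for 4 weeks with interleukin 3 and otherwise untreated, with a stated purity above 95% by surface Kit and FcεRIα. The labels state neither the design of the deleted allele nor how many animals gave each culture. With 1 library per genotype no difference below could be set against a spread between animals, so no test was made. All coordinates are 1-based on mm10.

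C/EBP factors are basic leucine zipper proteins that bind DNA as dimers and drive granulocyte and macrophage genes as well as the acute inflammatory response. IRF factors recognise interferon response elements, either alone or, in the case of Irf4 and Irf8, together with ETS or AP-1 partners. In mouse progenitors Cebpa favours the basophil over the mast cell fate, and Irf8 acts early in the same lineage.

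Promoter sequences were available for 6 of the 8 genes, and 3 of them carried a peak. These are shown because they are the promoters at which the deposited calls can be read base by base. Each runs 5′ to 3′ on the plus strand, from 250 bases before to 50 after the RefSeq transcription start of GRCm38.p6, the assembly that mm10 names. Capitals mark bases inside a knockout peak.
Cebpa, chr7:35119043-35119342: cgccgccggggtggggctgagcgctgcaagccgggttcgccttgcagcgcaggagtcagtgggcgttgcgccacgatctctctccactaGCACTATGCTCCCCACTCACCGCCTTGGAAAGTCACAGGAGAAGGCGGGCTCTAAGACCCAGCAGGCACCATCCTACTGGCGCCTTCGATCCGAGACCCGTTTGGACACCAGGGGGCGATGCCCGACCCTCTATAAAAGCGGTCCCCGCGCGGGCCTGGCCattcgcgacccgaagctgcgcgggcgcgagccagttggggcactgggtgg
Irf2, chr8:46739495-46739794: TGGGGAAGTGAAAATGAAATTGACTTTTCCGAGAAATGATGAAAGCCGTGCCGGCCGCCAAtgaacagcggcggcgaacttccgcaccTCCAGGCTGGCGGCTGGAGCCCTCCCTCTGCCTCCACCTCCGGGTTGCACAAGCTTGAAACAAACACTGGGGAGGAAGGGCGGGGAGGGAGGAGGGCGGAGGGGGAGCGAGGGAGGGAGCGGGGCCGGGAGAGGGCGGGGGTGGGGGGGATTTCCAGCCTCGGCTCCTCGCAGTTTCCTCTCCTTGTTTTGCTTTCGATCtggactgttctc
Irf8, chr8:120736108-120736407: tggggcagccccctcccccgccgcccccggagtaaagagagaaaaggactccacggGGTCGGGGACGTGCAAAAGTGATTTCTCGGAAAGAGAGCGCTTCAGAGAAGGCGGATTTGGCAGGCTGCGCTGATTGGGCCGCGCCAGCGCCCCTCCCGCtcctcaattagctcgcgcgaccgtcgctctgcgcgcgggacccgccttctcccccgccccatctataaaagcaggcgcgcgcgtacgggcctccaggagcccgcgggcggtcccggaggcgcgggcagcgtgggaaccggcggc

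The Cebpa promoter was open in both libraries, with 161 of 300 bases inside the knockout peak and 154 inside the wild-type peak, 153 of them the same bases. At Irf2, 261 bases lay inside knockout peaks and 172 inside the wild-type peak. At Irf8, 100 bases lay inside a knockout peak and 0 inside a wild-type peak. Across all promoter windows on the chromosomes of the lists, 3.79% had a peak in the knockout list alone, 2.38% in the wild-type list alone and 17.9% in both. The windows of Cebpb, Irf4 and Irf5, and the second Irf8 window, held no peak of either list.

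The 3 promoters with a peak held more CG dinucleotides, the substrate of DNA methylation, than the median promoter. DNA methylation was not measured here. Cebpa had 29, Irf2 19 and Irf8 38 in the 300 bases, against a median of 7 over 32851 promoters. These numbers were above those of 87.1%, 71.9% and 95.0% of promoters. Within the knockout peaks lay 12, 15 and 10 of these CG, in the same order of genes. Of the windows without a peak, Cebpb had 50 and Irf5 35, above 99.1% and 93.0% of promoters. Irf4 had 11 and the second Irf8 window 8. The number of CG thus did not separate windows with a peak from those without.

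Fixed letter patterns were searched on both strands of these windows. For C/EBP these were TTGCGCAA and TTGCNNAA, for IRF a pair of GAAA repeats with 2 or 3 bases between them, for ETS with IRF the letters GGAA and GAAA with 2 bases between them, for PU.1 GAGGAAGT, for GATA factors AGATAA, for AP-1 TGANTCA and for E-box proteins CACGTG. Matches were found at Irf2 alone. Its window held GGAAGTGAAA at -247 to -238 from the transcription start, which overlaps GAAAATGAAA at -241 to -232, and TTGCACAA at -118 to -111. All 3 lay inside peaks of both libraries. Over all promoters, the ETS with IRF pattern occurred in 2.72%, the GAAA pair with 2 bases between in 3.44% and TTGCNNAA in 10.8%. The STAT pattern TTCNNNGAA was added after the sequences were seen. It matched at 2 places in the Irf8 window, as TTCTCGGAA at -171 to -163 and TTCAGAGAA at -153 to -145, both inside the knockout peak, and once at Irf2, as TTCCGAGAA at -224 to -216. It occurred at least once in 8.30% of promoters, and the share with 2 matches was not counted. Such a match is a description of the letters and not evidence of binding.

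Of the 22 regions, 10 were called in the knockout library only (45.5%, exact binomial 95% interval 24.4 to 67.8), 1 in the wild-type library only (4.55%, 0.115 to 22.8) and 11 in both (50%, 28.2 to 71.8). Over all 23364 regions the shares were 28.0% knockout-only, 16.9% wild-type-only and 55.1% shared. Each of these lies inside the interval of the 8 genes, and the intervals cover counting error only. Among unshared regions, 10 of 11 were knockout-only (90.9%, 58.7 to 99.8), against 62.3% over all unshared regions. More knockout-only than wild-type-only regions were found at 6 genes (Cebpb, Cebpd, Cebpe, Irf2, Irf4 and Irf8), and more wild-type-only regions at none. Of the 11606 genes with any region, 32.2% had more knockout-only and 17.5% more wild-type-only regions. Those genes had a median of 1 and a mean of 2.02 regions. The 8 genes had 1, 7, 1, 2, 5, 2, 1 and 3, in the order listed at the start. A gene with more regions has more room to differ, and genes were not matched for this number. The C/EBP genes had 5 knockout-only, 0 wild-type-only and 6 shared regions, and the IRF genes 5, 1 and 5.

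**Figure D1:**
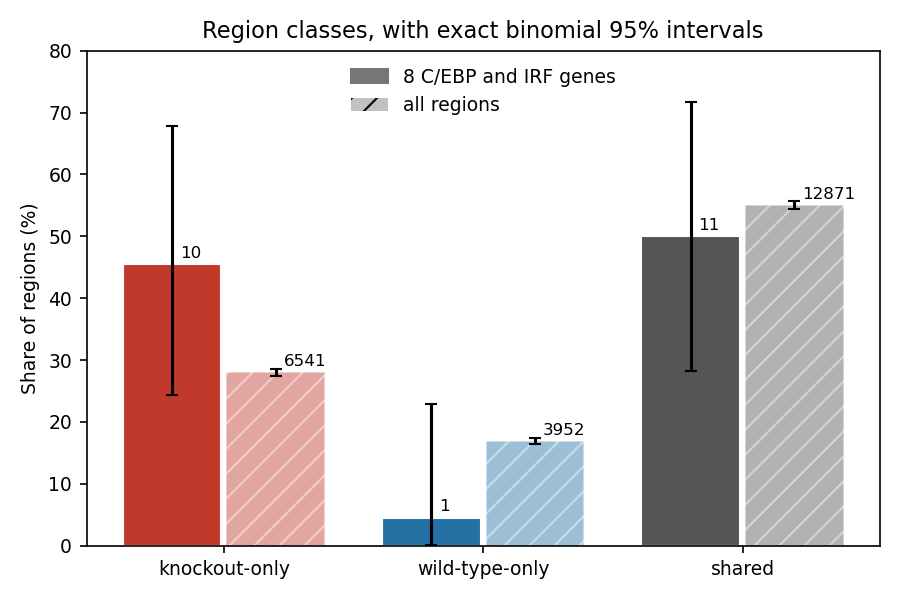
Share of regions (%) that were knockout-only, wild-type-only or shared, for the 8 C/EBP and IRF genes (solid bars) and for all regions (hatched bars), with exact binomial 95% intervals and the number of regions on each bar. The knockout-only bar of the 8 genes stands at 45.5% and that of all regions at 28.0%, a value inside the interval of 24.4 to 67.8.

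Regions of the C/EBP genes lay outside the genes. None of the 11 C/EBP regions overlapped the gene it was assigned to, and 6 lay over 10 kb away, all of them at Cebpb. Of the 11 IRF regions, 7 touched the gene body and 2 lay over 10 kb off. Over all regions 68.2% overlapped a protein-coding gene, and 14.1% lay over 10 kb and at most 100 kb from one. The C/EBP genes are short, 1.52 to 2.64 kb, and the IRF genes 15.7 to 108 kb long. The farthest region of all was 84.8 kb from its gene, and raising the distance limit to 250 kb added 0 regions.

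**Figure D2:**
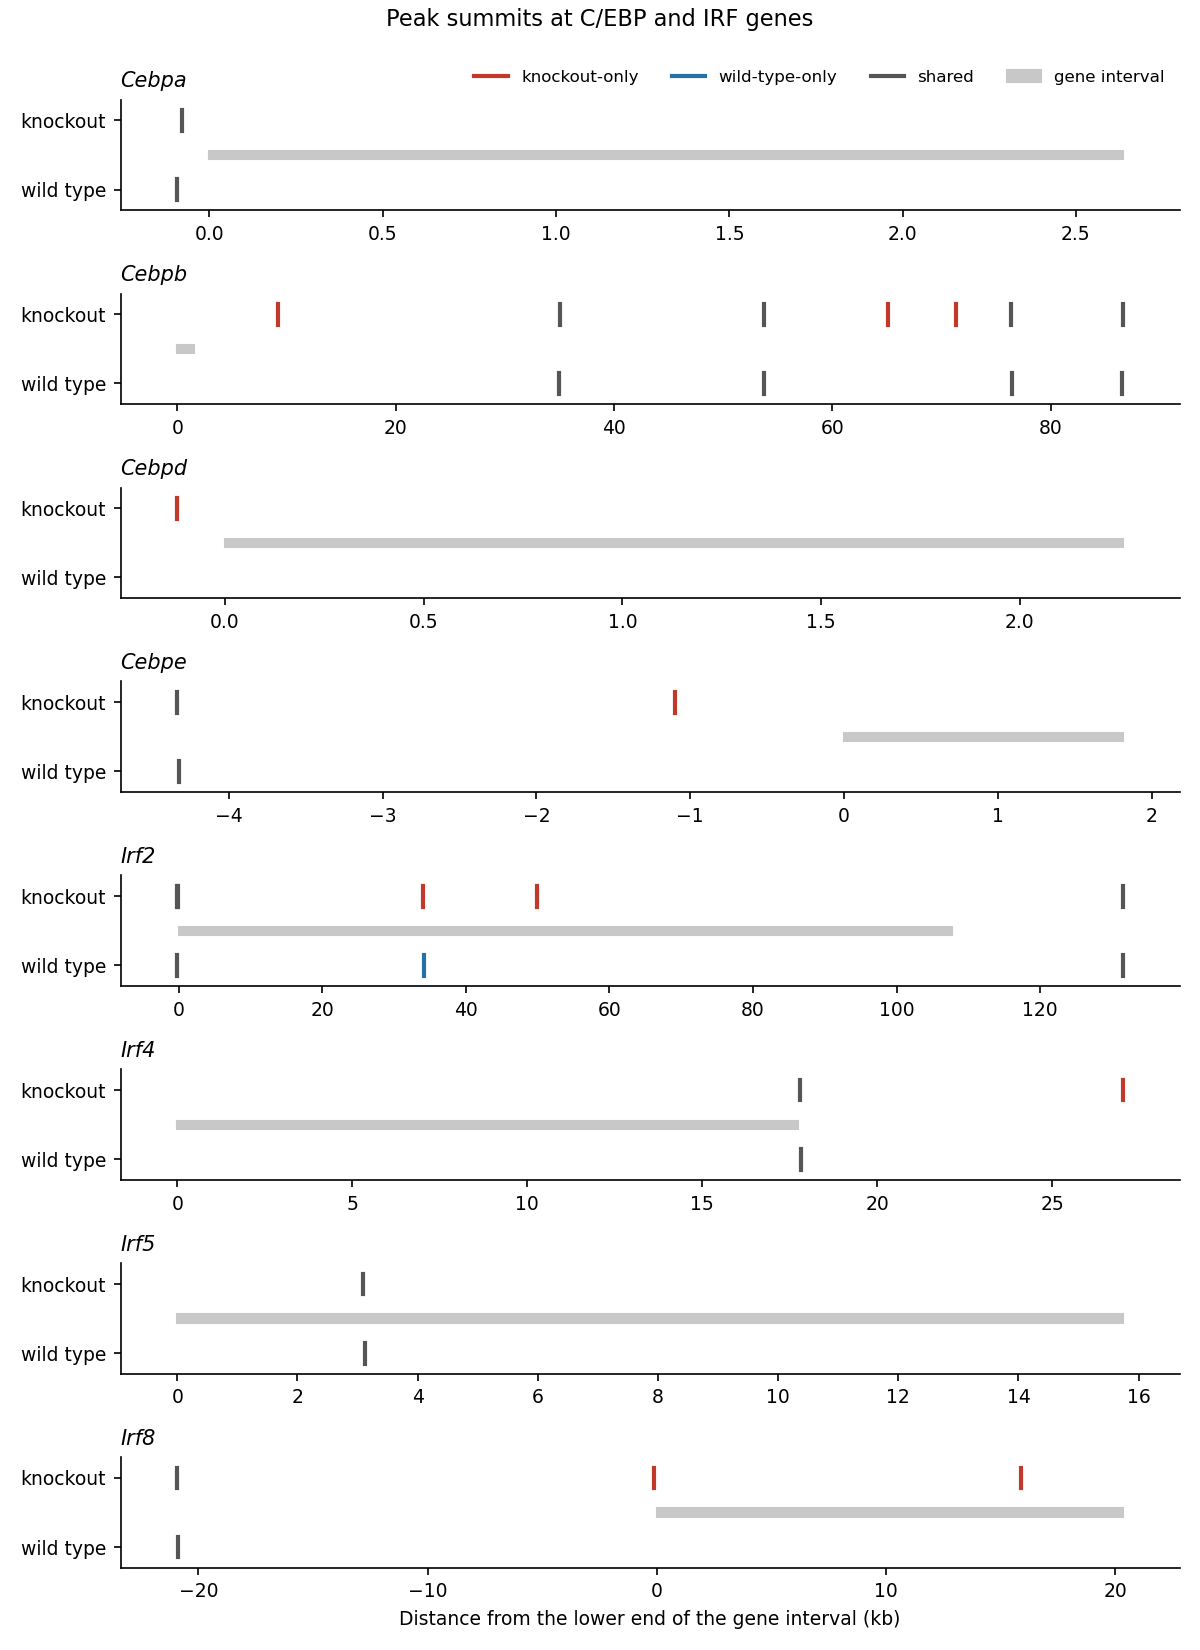
Peak summits at each gene by distance from the lower end of the gene interval (kb), with the knockout list above and the wild-type list below the gene (grey bar). Red ticks are knockout-only, blue wild-type-only and dark grey shared. Tick width is not to scale, and each gene has its own axis. Knockout-only ticks appear at 6 of the 8 genes, and the blue tick at Irf2 stands almost under a red one.

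The strength of a call was read as the summit pileup, the number of overlapping fragments at the top of the peak, which follows from the authors' fold and p-value. Reads were single, so a fragment here is a read as the peak caller laid it out, with settings not given. The 10 knockout-only peaks of the 8 genes had pileups of 5 to 8 (median 7.5), and the 12 knockout peaks in shared regions 6 to 14 (median 10.5). The 1 wild-type-only peak had 6, and the 11 wild-type peaks in shared regions 5 to 14 (median 11). Over all genes the medians were 6 for knockout-only and 6 for wild-type-only peaks. Every unshared peak of the 8 genes was thus below 9, the median pileup of each whole list. With 8 fragments the exact Poisson 95% interval runs from 3.45 to 15.8. These intervals, given in brackets after a pileup, take fragments as independent molecules and cover counting error only, so the true error is at least as wide. At this depth a missing call in the other list does not resolve a difference in accessibility. The lowest pileup called was 3 in both libraries.

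**Figure D3:**
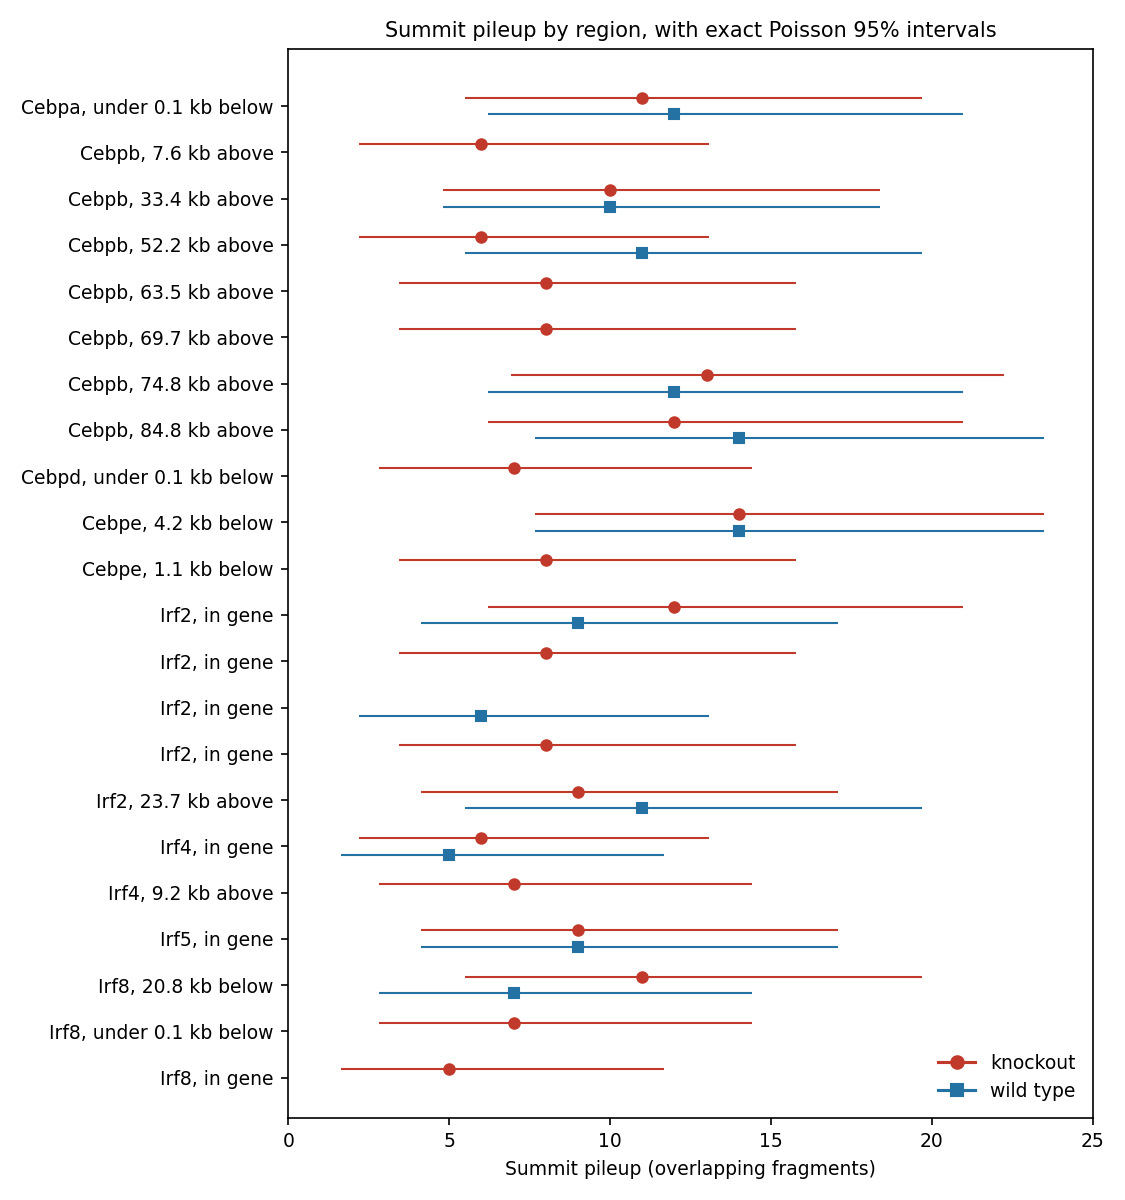
Summit pileup (overlapping fragments) of each region, with exact Poisson 95% intervals (counting error only), for the knockout (circles) and wild-type (squares) libraries; labels give the distance to the gene and whether it lies at higher (above) or lower (below) coordinates. In every region with both symbols the intervals overlap. At the Irf2 promoter the higher of 2 knockout peaks is plotted, with a pileup of 12.

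Cebpa, the lineage factor of granulocytes (gene ID 12606, chromosome 7, 35119293 to 35121928), had 1 region, shared, which ended at the base before the gene. Its peak had a pileup of 11 in the knockout and 12 in the wild-type library. The summits lay 14 bp apart, with the knockout one at -79 from the transcription start. No knockout-only or wild-type-only region was assigned to this gene.

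Cebpb, which drives inflammatory cytokine genes and the emergency production of granulocytes (gene ID 12608, chromosome 2, 167688915 to 167690432), had the most regions of the 8 genes. All 7 lay on the 3′ side of the gene, in the 240 kb that separate it from Ptpn1, the next protein-coding gene on that side. The knockout-only regions lay 7.59, 63.5 and 69.7 kb away, with knockout pileups of 6, 8 and 8. Shared regions lay 33.4, 52.2, 74.8 and 84.8 kb away. The middle knockout-only regions thus fell between shared ones, 11.3 and 5.09 kb from the nearest wild-type summit. Knockout pileups at the shared regions were 10, 6, 13 and 12 with distance, and wild-type pileups 10, 11, 12 and 14. The libraries differed most at 52.2 kb, where the knockout peak was the lower, with 6 (2.20 to 13.1) against 11 (5.49 to 19.7) in the wild type.

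With genes of all types allowed, every Cebpb region was nearer to a gene that is not protein-coding, among them A530013C23Rik, Gm38464, Gm52570 and Gm32287. The link to Cebpb is therefore one of distance among protein-coding genes, and no contact was measured. Having 3 or more knockout-only and no wild-type-only regions was found at 1.45% of genes with a region, and at 17.3% of the 98 genes that had 7 regions. The exact counts of Cebpb, 3 knockout-only, 0 wild-type-only and 4 shared, were matched by 8 other genes. Of these Sipa1l1 and Mrtfa held the strongest knockout peaks. This likeness rests on counts in 2 libraries.

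Cebpd, an acute-phase factor induced by cytokines (gene ID 12609, chromosome 16, 15887286 to 15889545), was the member without any wild-type peak. Its knockout-only peak (15887121 to 15887236) ended 50 bp below the gene, with a pileup of 7 (2.81 to 14.4), and the nearest wild-type summit was 23.8 kb away. It was also a weak call, with a −log10 q of 4.56, at percentile 5.82 of the knockout list.

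Cebpe, the factor of late granule formation in neutrophils (gene ID 110794, chromosome 14, 54710363 to 54712174), had 2 regions, both at lower coordinates. The shared one lay 4.23 kb away with a pileup of 14 in the knockout and 14 in the wild-type library, the highest knockout pileup among the members. The knockout-only one lay 1.07 kb away (54709198 to 54709297), with a pileup of 8 (3.45 to 15.8). It stood 3.23 kb from the nearest wild-type summit, which belongs to that shared region.

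Irf2, which competes with the activator Irf1 at interferon response elements (gene ID 16363, chromosome 8, 46739745 to 46847458), had 5 regions. Its promoter region held 2 knockout peaks of 100 and 200 bp and 1 wild-type peak of 172 bp that overlapped both. Their pileups were 8 and 12 in the knockout and 9 in the wild type. The separation into 2 peaks in the knockout list left a gap of 27 bases, printed in lower case above, that the wild-type peak covered. The promoter region also overlapped the non-coding gene Gm16675.

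The sole wild-type-only region of the 8 genes lay inside Irf2 (46773877 to 46773976, pileup 6, 2.20 to 13.1). It began 6 bp above the end of a knockout-only peak (46773746 to 46773871, pileup 8, 3.45 to 15.8), and their summits were 93 bp apart. With genes of all types allowed, both regions also overlapped Gm31172. Compared by summits within 200 bp, both became 1 shared region, so this pair does not show a difference in presence. A further knockout-only region in Irf2 (46789550 to 46789821) was 272 bp wide, the widest unshared peak of the members, with a pileup of 8 and no wild-type summit within 15.7 kb. The last, shared region lay 23.7 kb above the gene, with a pileup of 9 in the knockout and 11 in the wild type. The counts of Irf2, 2 knockout-only, 1 wild-type-only and 2 shared, were matched by 53 other genes, with Gpd2 and Rubcnl holding the strongest knockout peaks.

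Irf4, which is induced by antigen receptor signalling in lymphocytes (gene ID 16364, chromosome 13, 30749233 to 30766981), had no peak at its start in either library. A shared region reached its 3′ end, which the knockout peak touched and the wild-type peak did not, with a pileup of 6 in the knockout and 5 in the wild type, the lowest wild-type pileup of the members. A knockout-only region lay 9.21 kb beyond that end (30776186 to 30776292), with a pileup of 7 (2.81 to 14.4) and the nearest wild-type summit 9.20 kb away.

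Irf5, which acts downstream of Toll-like receptors in cytokine induction (gene ID 27056, chromosome 6, 29526130 to 29541869), had 1 region, shared and inside the gene. Its pileup was 9 in the knockout and 9 in the wild type. The summit lay 2.60 kb after the transcription start of the promoter table, and the start itself held no peak.

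Irf8, a factor of monocyte and dendritic cell development (gene ID 15900, chromosome 8, 120736358 to 120756694), had a shared region 20.8 kb before the gene and 2 knockout-only regions. The shared region had a pileup of 11 (5.49 to 19.7) in the knockout and 7 (2.81 to 14.4) in the wild type. The promoter peak of the knockout (120736164 to 120736263, pileup 7, 2.81 to 14.4) had its summit at -137 from the start. The other knockout-only peak lay inside the gene (120752185 to 120752284) and had a pileup of 5 (1.62 to 11.7), the lowest of the members in the knockout list. The nearest wild-type summits were 20.8 and 36.8 kb away. Both were 100 bp wide, the minimum width in the list, at which 15.3% of knockout peaks stood.

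Widths could be compared in the 10 regions with 1 peak in each list. The knockout peak was wider in 6 and the wild-type peak in 4, so that 60% were wider in the knockout (26.2 to 87.8), against 56.7% of 12299 such pairs over all genes. The median difference, knockout minus wild type, was 5 bp at the members and 9 bp over all pairs. Single differences were much larger than this median and went both ways. The Irf8 peak 20.8 kb before the gene was 212 bp wide in the knockout and 100 bp in the wild type. The Cebpb peak at 84.8 kb was 290 bp wide in the knockout and 209 bp in the wild type, and the outer Irf2 peak 184 and 107 bp. In the other direction, the Cebpb peak at 52.2 kb was 100 bp wide in the knockout and 159 bp in the wild type, and the Irf5 peak 117 and 171 bp. Cebpa (161 and 154 bp) and Irf4 (121 and 118 bp) had nearly the same width in both. The wider peak had the higher pileup at Irf8 and at 52.2 kb from Cebpb, and the lower pileup at the outer Irf2 peak and at 84.8 kb from Cebpb. The part of pileup in these widths was not tested.

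**Figure D4:**
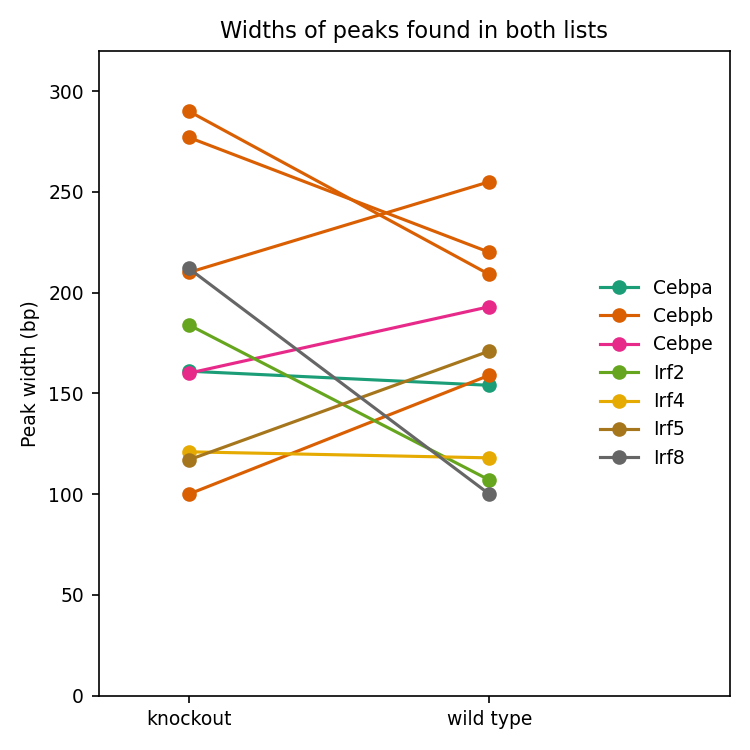
Width (bp) of the 10 peaks found once in each list, with the knockout on the left and the wild type on the right, joined by region and coloured by gene. Lines run in both directions, from 212 and 100 bp at Irf8 to 100 and 159 bp at Cebpb.

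Summit positions were compared in the same 10 pairs, whose peaks overlap by selection, so close summits were partly built in. Knockout and wild-type summits lay between 1 and 54 bp apart in the 10 pairs, with a median of 35 bp, against 28 bp over all pairs. They were within 50 bp in 9 of 10 pairs (90%, 55.5 to 99.7), against 74.8% over all pairs. The pair beyond it was the Cebpb peak at 84.8 kb. When peaks were paired by summits within 200 bp instead, 81.8% of 11 pairs were within 50 bp. Knockout pileup was the higher in 3 pairs, the lower in 4 and equal in 3. Over all 12299 pairs it was the higher in 6734 (54.8%), the lower in 4014 and equal in 1551. With 10 pairs these counts do not resolve a difference from all pairs, and pileups were not scaled between the libraries.

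Relatives and partners gave the wider setting. Of 10 further genes of the families and their co-factors, 9 had a region, with 11 knockout-only, 3 wild-type-only and 12 shared regions. Of their unshared regions 78.6% were knockout-only, against 62.3% over all. Of these 11 knockout-only regions, 5 were at the single gene Irf2bp2, and no interval was computed. The share therefore does not resolve a difference from all regions. The most unshared regions were assigned to Irf2bp2, which encodes a co-repressor that binds Irf2. It had 5 knockout-only, 0 wild-type-only and 1 shared region. Having 3 or more knockout-only and no wild-type-only regions was found at 1.45% of genes with a region, not matched for their number of regions. The 5 calls at Irf2bp2 had −log10 q of 4.09, 7.15, 8.93, 6.54 and 10.5. They lay 51.9, 37.0, 2.39, 9.55 and 22.0 kb from the gene, in the same order. For the relatives of Irf2bp2 the numbers called in the knockout and in the wild type alone were 2 and 1 at Irf2bp1 and 2 and 2 at Irf2bpl. At Irf2bp1 the wild-type-only region (19003326 to 19003427) lay beside a knockout-only one (19003152 to 19003251). Both were weak calls, with −log10 q of 4.77 and 4.17, so they do not resolve a difference in presence. Irf1, an activator of interferon response genes, had 1 knockout-only, 0 wild-type-only and 4 shared regions, and Irf3, which responds to viral nucleic acid, 1 knockout-only region over the gene and no other. Cebpg, Cebpz, Ddit3 and Irf9 had 1 shared region each, and Irf7 had none.

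Among 10 partner genes, 8 had a region, with 8 knockout-only, 5 wild-type-only and 24 shared. The knockout-only share of the unshared ones was 61.5%, near the 62.3% over all. Spi1, the gene of the ETS factor PU.1 that binds DNA with Irf4 and Irf8, had 0 knockout-only, 1 wild-type-only and 2 shared regions. The AP-1 partner gene Batf had 2, 2 and 1, and Batf3 had 1, 0 and 2. Runx1 had 1, 2 and 14, Ikzf1 3, 0 and 2, and Gfi1, a repressor gene of granulocyte development, 1, 0 and 0. The pattern of Ikzf1, 3 or more knockout-only and no wild-type-only regions, was that of 1.45% of genes with a region. These partners thus showed unshared regions of both kinds.

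Known target genes of these factors were counted in the same way. Of 13 myeloid C/EBP targets, 7 had a region in the knockout and 6 in the wild-type list, with 4 knockout-only, 2 wild-type-only and 10 shared regions. The knockout-only share of unshared regions was 66.7%, again beside 62.3% over all. Il6 had 2 knockout-only regions, and Csf1r and S100a8 1 each, while Csf3r and Ctsg had 1 wild-type-only region each. Ctsg also had 1 shared region and Ltf and S100a9 had 1 each, while Elane, Mpo, Lcn2 and Camp had none in either list. Of 12 interferon target genes in the table, 3 had a region in the knockout and 4 in the wild-type list, and the 1 unshared region, at Rsad2, was wild-type-only. Ifit2, Usp18 and Ifnb1 had 1 shared region each.

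Markers of the cell type were counted against all 21631 protein-coding genes, of which 49.6% had a region in the knockout and 46.4% in the wild-type list. Of 10 mast cell genes, 10 had a region in the knockout and 8 in the wild-type list, Hdc and Slc18a2 being those without a wild-type one. Their knockout calls were weak, with −log10 q of 4.78 at Hdc and 5.04, 5.60 and 5.25 at Slc18a2. The median of all knockout-only peaks was 6.48. A missing wild-type call does not resolve a difference there. The 10 mast cell genes had 12 knockout-only, 8 wild-type-only and 16 shared regions. Of the unshared ones 60% were knockout-only, against 62.3% over all unshared regions. Neutrophil genes had 3 and 3 of 8, macrophage genes 3 and 4 of 6, dendritic cell genes 1 and 1 of 6, B cell genes 1 and 0 of 5 and basophil genes 2 and 3 of 4. The macrophage and basophil shares were thus not below those of all genes. Among the neutrophil genes, Csf3r, S100a8, S100a9 and Ltf had 1 region each, and Elane, Mpo, Camp and Ngp had none in either list. The part of other cells in the regions of the 8 genes was not tested. Dnmt3a itself had 1 knockout-only, 2 wild-type-only and 4 shared regions, and since the deleted stretch is not stated this is a limited check of the labels. Peaks with a pileup of 5 to 8, the range of the members' knockout-only peaks, made up 40.5% of the knockout and 40.2% of the wild-type list, and the median pileup was 9 in both.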

How the data were processed

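ATAC-seq of 1 Dnmt3a knockout and 1 wild-type mast cell culture gave 1 peak list each. Per the labels' protocols, single 50 bp reads were made to a depth of 10 M. The tools and builds named in the submitters' processing notes are MACS2, Bowtie2 and Trimmomatic, with GRCm38 and mm10. Not given in the sources used here are their versions, their parameters and any Tn5 shift, which would move peak edges by a few bases. The authors deposited, per peak, the −log10 q-value, the −log10 p-value, a fold enrichment and a score of 10 times the −log10 q-value. These describe peaks within their own list.

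From the deposited fold and −log10 p, a whole-number summit pileup was solved for 100% of peaks (tolerance 0.001 in −log10 p), taking the fold as pileup over local background with 1 added to each. Peaks overlapping by 1 bp or more were merged. Genes came from 21631 protein-coding intervals of GRCm38.p6, and a region between equally near genes counts for each. Promoter sequences and transcription starts are RefSeq's, for 6 of 8 members. Python 3.11.15, NumPy 2.4.6, pandas 2.3.3, SciPy 1.17.1 and Matplotlib 3.10.9 were used. Merging, gene assignment and pileup recovery were tested on simulated data, with at most 1 peak per list at a site and well separated genes. Peaks that nearly touch, several peaks of a list in 1 region and overlapping genes were not simulated. The members, lists and alternatives were chosen with earlier results of these data known. Genes were named if they were members, Dnmt3a, related, partner or target genes with an unshared region, or the 2 with the strongest knockout peaks among those sharing the counts of a member with 4 or more regions. Other genes of these lists, and markers, were named after their values were seen. One listed gene is not reported here.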

Additional observations from a re-analysis of the deposited data

How the results depend on the processing

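No paired analysis was possible because there was 1 library of each genotype. Region counts were recomputed with a minimum −log10 q of 5, for both lists or for unshared regions only, with lists of equal length, with reciprocal overlap of 50%, with summits within 200 bp, and with 5 other assignments to genes. Knockout-only regions outnumbered wild-type-only ones under each of these 10, from 7 against 1 with genes of any type to 13 against 3 with the reciprocal overlap. The shares over all regions were not set beside these counts. In the main setting 62.3% of all unshared regions were knockout-only, so such an excess is not particular to these 8 genes. Wild-type-only regions numbered 3 with the reciprocal overlap and 0 by summits, where the Irf2 pair became shared. Shared regions numbered 5 over gene intervals with 10 kb and 6 with genes of any type, since all 4 at Cebpb and the one before Irf8 then dropped out, together with the outer Irf2 region in the first case. Summits within 50 bp made up 100% of 4 pairs with 10 kb and 100% of 7 pairs within 50 kb, where fewer pairs were left. The Cebpd region was lost with either −log10 q limit and with lists of equal length, which also left Irf8 with 1 knockout-only region. Counts per gene moved beyond 1.5 times in 20 of 240 comparisons. Many of these counts were 0 in the main setting and had little room to move. Assignment to the nearest gene end and the 250 kb limit gave the main counts again. The number is thus no measure of stability. At Cebpb the 7 regions became 0 with genes of any type, 1 with 10 kb and 2 within 50 kb. Each unshared call rested on a pileup of 8 or fewer fragments, which limits these counts.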
